A study of Homo sapiens with 12 samples.

Results

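Genes of DNA replication origins and forks were examined after CXCR7 knockdown (KD) in prostate cancer cells of the LNCaP-EnzR and C4-2B-EnzR lines. The set holds 41 genes chosen by name for their known roles at origins and forks, with earlier results of these data known. All 41 were among the 14204 genes with 0.5 RPKM or more in 3 or more of 12 libraries. LNCaP is a human prostate cancer line, C4-2B is a castration-resistant derivative of it, and EnzR marks sublines selected for resistance to the androgen receptor inhibitor enzalutamide. Control and KD cultures alike were grown in enzalutamide, at 2 µM for LNCaP-EnzR and at 10 µM for C4-2B-EnzR. Control cells received the lentiviral vector pLKO (LKO) and KD cells a lentivirus with a short hairpin against CXCR7 (shCXCR7), and RNA was taken 4 days after infection. There were 3 libraries in each of the 4 groups. The study describes its C4-2B-EnzR RNA-Seq as done in duplicate, and which of these libraries it used is not stated. The hairpin in these libraries is not given in the sources used here, so an effect of CXCR7 loss and an effect of that hairpin on other transcripts cannot be told apart.

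Replication starts at origins, where the origin recognition complex and the loading factors CDC6 and CDT1 place the MCM2 to MCM7 helicase on DNA. Kinases and further factors then turn the helicase on, polymerases copy both strands, a sliding clamp holds the polymerases in place, and other proteins protect the fork and rebuild chromatin behind it. Many of these genes are transcribed as cells approach and enter S phase, and E2F factors are known to bind the promoters of many of them. The genes are scattered over the genome. In GENCODE 44 (GRCh38) the 41 genes lie on 19 chromosomes, with at most 4 on any of them, and exons of 13 overlap exons of another protein-coding gene, by 0.102% (DTL) to 16.8% (POLA2) of the gene's own exon bases. The strand setting of the counting is not given in the sources used here, so reads in those shared bases cannot be assigned.

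The promoters of these genes were searched for short sequences that had no part in choosing them. RefSeq promoter windows (GRCh38.p14) of 300 bases, from 250 before to 50 after a start of transcription, were at hand for 36 of the 41 genes. An E2F match was any of the 8-base spellings TTTCCCGC, TTTGGCGC, TTTCGCGC and TTTGCCGC on either strand. Of the 36 genes, 21 (58.3%) had such a match, against 6 of 34 other replication genes (17.6%) and 653 of 9997 tested genes with a window (6.53%). Counted by window, the shares were 46.7% of 45 windows of these genes, 4.83% of 14455 windows of tested genes and 3.32% of all 35093 windows in the table. The spelling TTTCCCGC was found in 10 of the genes, TTTGGCGC in 9, TTTCGCGC in 5 and TTTGCCGC in 0, with 3 genes (MCM3, MCM6 and MCM7) holding more than 1 spelling. Of the 9997 tested genes with a window, 3.3%, 1.36%, 1.0% and 1.13% held these spellings, in the same order. Counted over all windows instead of genes, the shares of these spellings were 1.63%, 0.653%, 0.516% and 0.607%. The match lay within 100 bases of the start in 19 of the 21 genes. A CCAAT box (CCAAT, either strand), the site of the factor NF-Y, was present in 58.3% of the 36 genes, 58.8% of the 34 other replication genes, 43.1% of tested genes and 34.6% of all windows. A CHR element (TTTGAA, either strand), found in many genes of mitosis, was present in 1 of the 36, DBF4, against 13.0% of tested genes and 15.2% of all windows. A match is a string of letters and not a measured binding site.

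The stretches around the E2F match are shown for the 8 genes with a match that fell most in C4-2B-EnzR cells, so that the letters can be set beside the changes given further on. Each run is written 5′ to 3′ on the strand of the gene, with the match in capitals. They are CLSPN at chr1:35769967-35769992 on the minus strand, CDC6 at chr17:40287877-40287902 on the plus strand, DTL at chr1:212035731-212035756 on the plus strand, MCM7 at chr7:100101390-100101415 on the minus strand, GINS2 at chr16:85688969-85688994 on the minus strand, MCM3 at chr6:52284730-52284755 on the minus strand, CDT1 at chr16:88803745-88803770 on the plus strand and LIG1 at chr19:48170442-48170467 on the minus strand.
CLSPN: tctggctggGCGGGAAAgcaagaaca
CDC6: ccattcggaTTTGGCGCgagcgcggc
DTL: tgacgtcagTTTGGCGCggagtttgg
MCM7: ggggcgacgTTTCGCGCcaatttcgg
GINS2: ctcgccgtgGCGGGAAAacggcggcc
MCM3: ttcggaagtTTTCGCGCcggggtgga
CDT1: agggcgcccGCGGGAAAtttggcggg
LIG1: ttcacccctTTTCCCGCcctcctccc
In CLSPN, GINS2 and CDT1 the match reads on the opposite strand, so the capitals show GCGGGAAA, the reverse complement of TTTCCCGC. In MCM7 the last base of the match is also the first base of a CCAAT box.

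**Figure D1:**
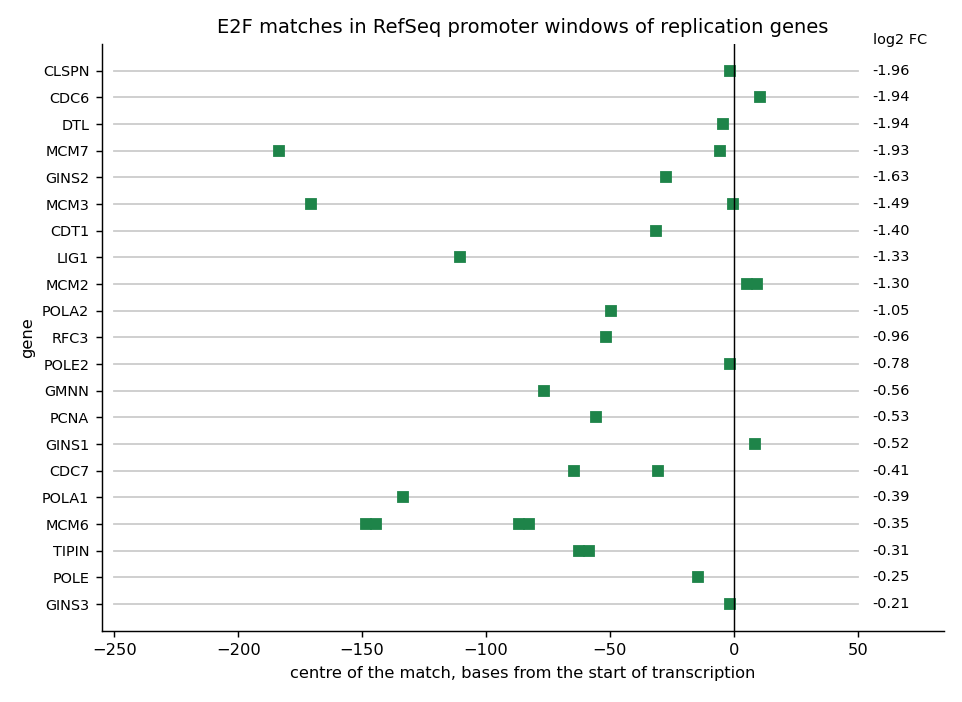
E2F matches in the RefSeq promoter windows of the 21 replication genes that hold one. Each row is a gene, the grey line is its window, squares are centres of matches in bases from the start of transcription (0), and the column on the right gives the log2 fold change in C4-2B-EnzR cells, from -1.96 for CLSPN to -0.21 for GINS3. In 19 of the 21 genes a match lies within 100 bases of the start.

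CXCR7, listed under its current symbol ACKR3 (chromosome 2 of GRCh38, 236567787 to 236582354, plus strand), checked the labels. The LKO libraries of C4-2B-EnzR held 84.1, 86.8 and 85.9 rescaled RPKM and the shCXCR7 libraries 22.3, 23.7 and 19, and in LNCaP-EnzR the values were 122, 117 and 111 against 55.9, 50.6 and 41.6. The groups did not overlap in either line, and the fall was larger in C4-2B-EnzR cells (log2 fold change -1.97, standard error 0.09) than in LNCaP-EnzR cells (-1.25, standard error 0.11), with a difference of -0.72 (standard error 0.15, adjusted p = 0.00908 by limma). Here and below, RPKM as deposited (reads scaled for gene length and library total) was divided by a median-of-ratios factor for each library within its line, changes are on the scale of log2(rescaled RPKM + 0.25), which understates the change of low genes, and a gene was called at an adjusted p under 0.05 over all 14204 genes. Whether the libraries of a group are separate cultures is not stated, so each p value reflects the spread among these libraries alone, and that spread may be technical.

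Reads recovered from the RPKM steps came to between 6.222 and 9.633 M in genes per library and to between 21 and 2167 for a replication gene in a library. The library LNCaP-EnzR shCXCR7 replicate 3 stood apart, with 1636 genes at 0 against 8719 to 9652 in the others. Its factor was 0.4998 where the other factors of its line lay between 1.105 and 1.203. In it 3685 genes were above 0 that were at 0 in all other libraries, and their median there was 0.33 RPKM as deposited. Where leaving that library out changed a call on one of the 41 genes, the value without it is also given. All 8 prostate luminal markers were at 0.5 RPKM or more in every group. Of 6 fibroblast and 6 blood cell markers, 1 to 4 reached that level in a group, and their summed levels were 3.82 to 11.4 and 3.6 to 9.35 RPKM.

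In C4-2B-EnzR cells the replication genes fell together after CXCR7 KD. Of the 41, 36 were lower (87.8%) and 0 were higher, against 19.5% of all tested genes lower and 19.4% higher, and their median log2 fold change was -1.01 against 0 for all genes. At an unadjusted p under 0.05 limma gave 39 lower and 0 higher, and its voom method on the recovered reads gave 40 lower and 0 higher (39 and 0 at an adjusted p under 0.05). At the adjusted limit voom called 3094 of 14202 genes lower and 3050 higher. Shares of all genes at an unadjusted p, here and below, were not counted. The study set limits of 2-fold and an adjusted p under 0.001 for LNCaP-EnzR cells, with DESeq2. At these limits limma gave 13 lower here against 1.87% of all genes, and 0 higher against 1.22%. In LNCaP-EnzR cells 0 of the 41 were lower and 0 higher at them, against 264 and 232 of all 14204 genes. The shCXCR7 libraries lay below every LKO library for 37 of the 41 genes, against 26.0% of all genes, and above for 0, against 26.6%. The changes ran from -2.52 for MCM10 to -0.21 for GINS3. Cells were measured in bulk, so fewer cells in S phase and less RNA of these genes per cell cannot be told apart.

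The LKO libraries of C4-2B-EnzR differed from each other in these genes. Relative to the mean of the LKO libraries, the median replication gene stood at -0.29, 0.02 and 0.26 on the log2 scale in replicates 1, 2 and 3, and 39, 17 and 0 of the 41 genes were below the mean in them. In the shCXCR7 libraries the median stood at -1.04, -0.85 and -1.09, and all 41 genes were below the mean in each. By this median every shCXCR7 library lay below the lowest control. Leaving out LKO replicate 1, 2 or 3 left 40, 27 or 30 genes called lower and a median change of -1.15, -1.04 or -0.84. Of all genes tested then, 2883 of 14108, 2090 of 14137 or 2549 of 14146 were lower. GINS1, PRIM1, POLD3, PCNA, TIPIN and CHAF1B lost their calls without rescaling and whenever a library other than LKO replicate 1 was left out.

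**Figure D2:**
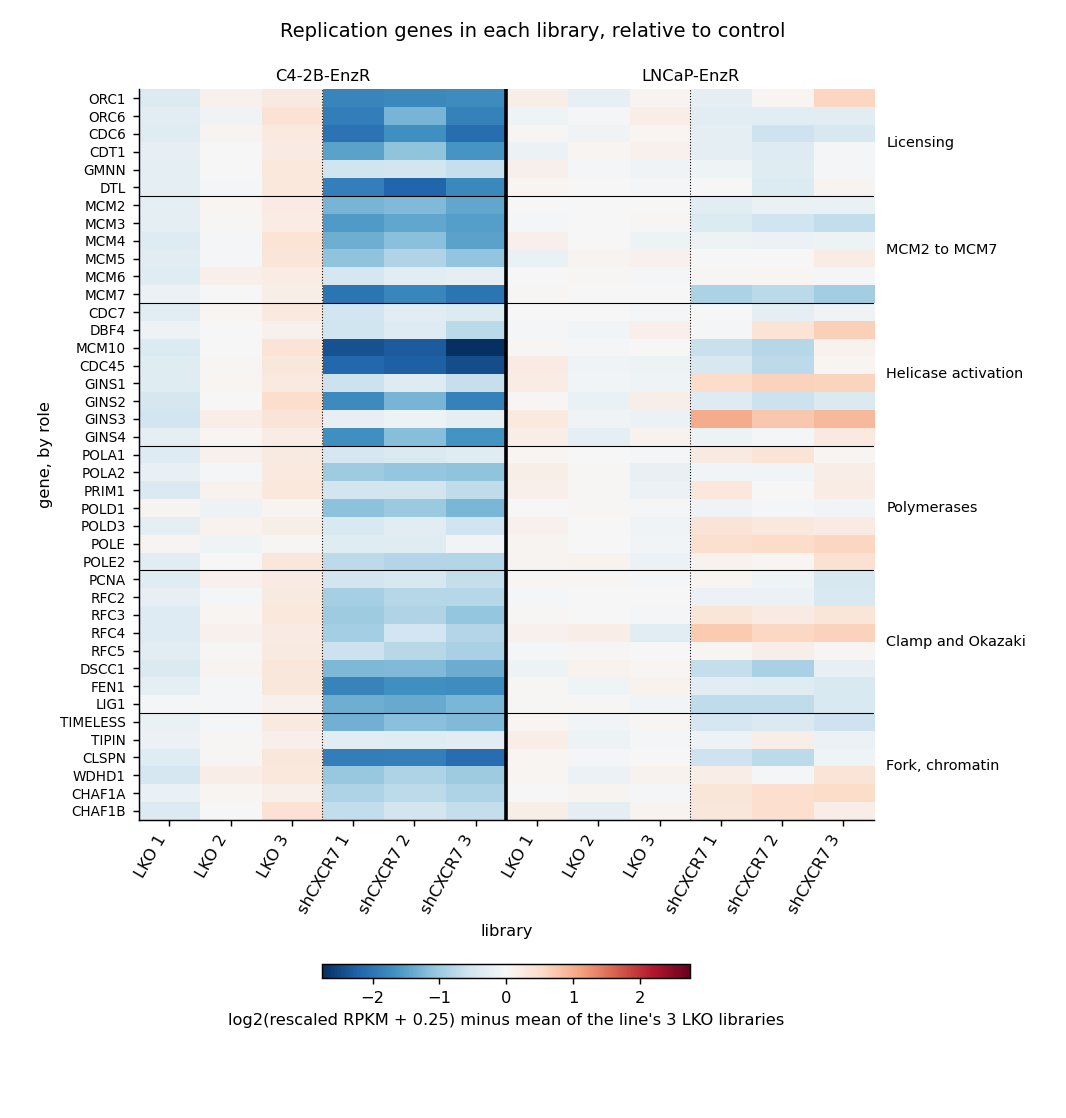
Heat map of the 41 replication genes (rows, grouped by role) in the 12 libraries (columns). Colour is log2(rescaled RPKM + 0.25) minus the mean of the 3 LKO libraries of the same line, blue for lower and red for higher. The C4-2B-EnzR shCXCR7 columns are blue in all 41 rows, with medians of -1.04, -0.85 and -1.09, while those of LNCaP-EnzR have medians of -0.1, -0.09 and 0.05.

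In LNCaP-EnzR cells the same genes moved in both directions. Of the 41, 9 were lower (22.0%) and 6 were higher (14.6%), against 19.1% and 16.8% of all tested genes, and the median change was -0.08 against 0.03 for all genes. These shares are near those of all genes. The groups did not overlap for 14 genes that were lower and 10 that were higher, against 24.5% and 24.7% of all genes. The 9 that fell were MCM7, LIG1, DSCC1, MCM3, TIMELESS, GINS2, CDC6, FEN1 and MCM2, and the 6 that rose were GINS3, RFC4, GINS1, POLE, CHAF1A and RFC3. Without LNCaP-EnzR shCXCR7 replicate 3 there were 12 lower and 7 higher, with MCM10, CDC45 and CLSPN added to the first and POLA1 to the second. Of all 14012 genes tested then, 2954 were lower and 2844 higher. With a background of 0.33 RPKM, as deposited, subtracted from that library before rescaling, 12 were lower and 6 higher, against 2978 and 2928 of all 14204 genes. This gained ORC6, MCM10, RFC2 and CLSPN and lost MCM2. Without LNCaP-EnzR LKO replicate 3, 5 were lower and 5 higher, as CDC6, MCM2, GINS2, DSCC1 and RFC3 no longer passed. The counts over all 14140 genes tested then were 2072 and 1735. On the deposited values without rescaling 0 genes passed in either direction by limma (5 lower and 0 higher at an unadjusted p under 0.05), and the median of all genes was then -0.28. With that scaling but without the library that stood apart, 9 were lower and 9 higher, against 2291 and 3512 of all 14012 genes tested then.

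The difference between the lines was tested as an interaction over the 12 libraries. The change after KD was lower in C4-2B-EnzR than in LNCaP-EnzR cells for 34 of the 41 genes (82.9%), against 5.96% of all genes, and higher for 0, against 5.77%. None was higher at an unadjusted p under 0.05 either, or by voom, which gave 32 lower against 909 of all 14202 genes. The median difference was -1.07 against -0.02 for all genes. GINS1, RFC3, RFC4 and CHAF1A were called lower in C4-2B-EnzR and higher in LNCaP-EnzR cells, while POLE and GINS3 were called higher in LNCaP-EnzR and not called in C4-2B-EnzR cells. The 7 genes that did not pass were GMNN, MCM6, CDC7, POLA1, PCNA, DSCC1 and TIPIN, with differences from -0.27 (TIPIN) to -0.68 (DSCC1). Without the library that stood apart 33 passed by limma, as DBF4 (-0.71, adjusted p = 0.0534) and PRIM1 (-0.72, adjusted p = 0.0781) were lost and POLA1 (-0.72, adjusted p = 0.046) was gained. Of all 14012 genes tested then, 876 were lower and 766 higher. On the deposited values without rescaling, ORC1, MCM10 and CDC45 alone of the 41 passed (3 genes), against 33 lower and 20 higher of all 14204 genes. Leaving out the library that stood apart on those values brought the count to 30, against 869 lower and 514 higher of all 14012 genes. CXCR7 itself also fell more in C4-2B-EnzR cells, and the part of this in the difference was not tested.

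**Figure D3:**
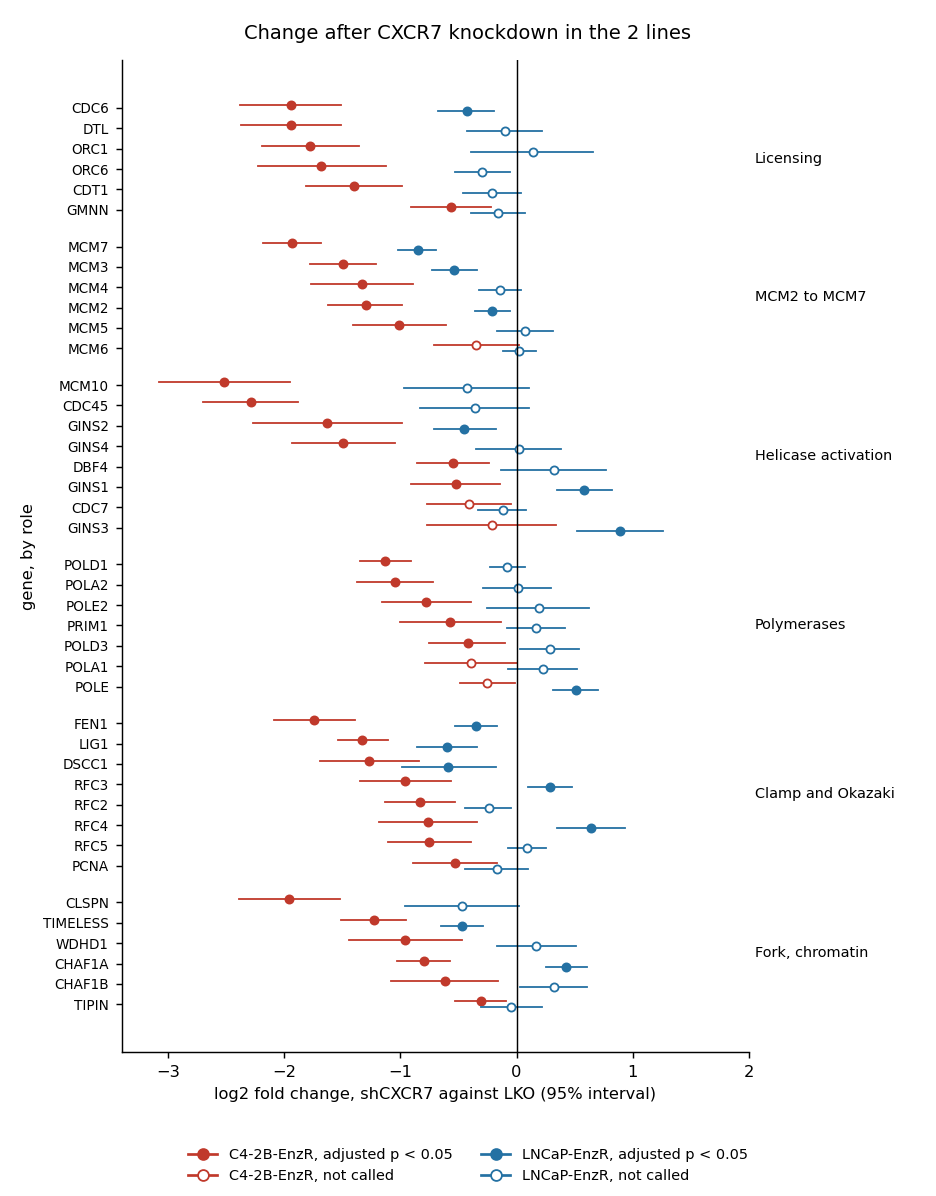
Log2 fold change of each replication gene, shCXCR7 against LKO, in C4-2B-EnzR (red) and LNCaP-EnzR (blue) cells, by role, with 95% intervals from 3 libraries against 3. Filled points passed an adjusted p of 0.05 and open points did not. All 41 red points lie left of 0, from -2.52 to -0.21, and the blue points lie between -0.85 and 0.89.

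Origin recognition and licensing genes had the lowest median change of the 6 roles in C4-2B-EnzR cells (-1.73), and all 6 were called lower. CDC6, the ATPase that recruits the helicase to the origin complex, stood at 10.3, 13.8 and 15.8 rescaled RPKM in the LKO libraries and at 3, 3.87 and 2.88 in the shCXCR7 libraries. Its groups did not overlap, and the mean fell to 24.4% of control (log2 fold change -1.94, standard error 0.18, adjusted p = 0.000616). DTL, the receptor subunit of the ubiquitin ligase that removes CDT1 in S phase, had the same change, -1.94 (standard error 0.18), from 3.94 ± 0.8 to 0.838 ± 0.154 rescaled RPKM (SD, n = 3 each). ORC1 and ORC6, subunits of the origin recognition complex, fell by 1.78 and 1.68 (standard errors 0.17 and 0.23), and CDT1, the partner of CDC6 in loading, fell by 1.40 (standard error 0.17). GMNN encodes geminin, the inhibitor of CDT1, and had the smallest change of the group. It was at 9.13, 11.1 and 13.6 in LKO and 7.59, 7.81 and 7.04 in shCXCR7 libraries, lower in each shCXCR7 library than in every control (-0.56, standard error 0.14, adjusted p = 0.0223).

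In LNCaP-EnzR cells 1 of these 6 genes was called. CDC6 was at 4.67, 4.21 and 4.74 rescaled RPKM in LKO and at 3.71, 2.96 and 3.25 in shCXCR7 libraries, without overlap (-0.43, standard error 0.11, adjusted p = 0.0133). ORC1 was at 1.59, 1.16 and 1.5 against 1.15, 1.48 and 2.23, so the groups overlapped, and its highest value was in the library that stood apart. Its change was 0.14 (standard error 0.23) with that library and -0.09 (standard error 0.18) without it, and neither passed. The difference between the lines was -1.91 for ORC1, -1.83 for DTL, -1.51 for CDC6, -1.38 for ORC6 and -1.19 for CDT1, with standard errors of 0.21 to 0.30, and each passed.

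The MCM2 to MCM7 subunits form the ring-shaped core of the replicative helicase, with each subunit present in equal number. Differences in change between subunits were not tested, and their values ranged widely. In C4-2B-EnzR cells 5 of the 6 were called lower. MCM7 was at 37.6, 41.6 and 47.1 rescaled RPKM in LKO and 10.3, 12 and 10.3 in shCXCR7 libraries, a wide gap with no overlap (-1.93, 95% interval -2.18 to -1.68, adjusted p = 0.00014). MCM6 was at 10.5, 14.8 and 15.4 against 9.66, 10.8 and 11.1, with overlap, and did not pass (-0.35, 95% interval -0.71 to 0.02, adjusted p = 0.116). MCM3, MCM4, MCM2 and MCM5 lay between them at -1.49, -1.33, -1.30 and -1.01 (standard errors 0.12, 0.18, 0.13 and 0.17). In the LKO libraries the mean level, per length, ran from 13.6 for MCM6 to 42.1 for MCM7, and in the shCXCR7 libraries from 7.6 for MCM3 to 14.6 for MCM2. MCM6 was thus the lowest of the 6 in control and exceeded MCM3, MCM4 and MCM5 after KD, an order that was not tested.

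MCM7 was also the gene of the set that fell furthest in LNCaP-EnzR cells. It stood at 25.1, 24.4 and 24.4 rescaled RPKM in LKO and at 13.4, 14.7 and 12.6 in shCXCR7 libraries, 55.0% of the control mean (-0.85, standard error 0.07, adjusted p = 6.2e-05). MCM3 fell by 0.54 and MCM2 by 0.21 (standard errors 0.09 and 0.06). The call on MCM2 (adjusted p = 0.0337) was lost without rescaling, with quantile normalization and when any library other than shCXCR7 replicate 3 was left out. MCM5 had the highest value of the 6, 0.07 (standard error 0.11), at 5.45, 6.56 and 6.77 against 6.21, 6.24 and 7.23, and its groups overlapped. In the GENCODE annotation 7.9% of the exon bases of MCM7 are shared with AP4M1 on the opposite strand.

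Helicase activation includes the genes that fell furthest of all. MCM10, which helps the helicase to open, was at 5.75, 7.5 and 9.88 rescaled RPKM in C4-2B-EnzR LKO and at 1.23, 1.35 and 0.81 in shCXCR7 libraries, so that the mean dropped to 14.6% of control (-2.52, standard error 0.24, adjusted p = 0.000617). CDC45 joins the helicase with the GINS complex, and it fell from 9.04, 11.6 and 14.2 to 2.35, 2.2 and 1.9 (-2.29, standard error 0.17, adjusted p = 0.0003). The groups did not overlap for either gene. Neither has an E2F match of the searched spellings in its window. CDC7 and its activator DBF4 form the kinase that fires the loaded helicase, and their values were closer to 0, at -0.41 for CDC7 (adjusted p = 0.0706, not called) and -0.55 for DBF4 (standard error 0.13, called).

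The GINS complex, which joins the helicase with CDC45, has 4 subunits, and their changes covered a wide range in both lines, a spread that was not tested. In C4-2B-EnzR cells GINS2, GINS4 and GINS1 fell, with changes of -1.63, -1.49 and -0.52 (standard errors 0.27, 0.18 and 0.16). GINS3 was at 1.28, 2.25 and 2.56 rescaled RPKM in LKO and at 1.63, 1.76 and 1.58 in shCXCR7 libraries, with the lowest value in a control, and it did not pass (-0.21, standard error 0.23, adjusted p = 0.503). In LNCaP-EnzR cells GINS3 had the largest rise of the whole set. It went from 1.51, 1.12 and 1.06 to 2.74, 2.2 and 2.49 without overlap, 201% of the control mean (0.89, standard error 0.16, adjusted p = 0.00316). GINS1 rose there by 0.58 (standard error 0.10). With all libraries GINS2 had the lowest change of the role in LNCaP-EnzR cells, at 4.91, 4.21 and 5.4 against 3.74, 3.09 and 3.61 (-0.45, standard error 0.12, adjusted p = 0.0179), and GINS4 was at 0.02 (standard error 0.16). Without the library that stood apart GINS2 was at -0.47, above MCM10 and CDC45. Reads for GINS2 ran from 24 to 144 and for GINS3 from 31 to 106 per library, among the lower counts of the set.

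In LNCaP-EnzR cells MCM10 and CDC45 depended on the library that stood apart. MCM10 was at 1.59, 1.47 and 1.56 rescaled RPKM in LKO and at 0.923, 0.788 and 1.66 in shCXCR7 libraries, with replicate 3 the highest. Its change was -0.43 (standard error 0.24, adjusted p = 0.196) with all libraries and -0.71 (adjusted p = 0.00713 by limma) without that library. It was -0.58 (adjusted p = 0.0245 by limma) after that library's background was subtracted. That background was 0.33 RPKM on the deposited scale, before division by a factor, which for this library was 0.4998 in the main fit. CDC45 was at 2.8, 2.19 and 2.13 against 1.68, 1.34 and 2.46, again with replicate 3 on top, and its change was -0.36 (adjusted p = 0.213) with it, -0.58 (adjusted p = 0.0401) without it and -0.43 (adjusted p = 0.101) after the subtraction. The difference between the lines was -2.08 for MCM10 and -1.93 for CDC45 (standard errors 0.34 and 0.28, both called).

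Polymerase and primase genes had the smallest median change of the roles in C4-2B-EnzR cells, -0.57, with 5 of 7 called lower. POLD1, the catalytic subunit of the polymerase that copies the lagging strand, was at 21.8, 18.9 and 21.9 rescaled RPKM in LKO and 9.45, 10.1 and 8.53 in shCXCR7 libraries, far apart (-1.13, standard error 0.09, adjusted p = 0.00037). POLE, the catalytic subunit of the leading strand polymerase, was at 13.7, 11.9 and 13.3 against 10.2, 10.2 and 12.3, with overlap, and did not pass (-0.25, standard error 0.10, adjusted p = 0.0928). POLA2, POLE2, PRIM1 and POLD3, which encode accessory or primase subunits, fell by 1.05, 0.78, 0.57 and 0.42 (standard errors 0.14, 0.16, 0.18 and 0.13). POLA1, the catalytic subunit of the polymerase that starts each strand, was at -0.39 (standard error 0.16, adjusted p = 0.101).

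In LNCaP-EnzR cells POLE was the single called gene of this role with all libraries, and it rose. It stood at 4.95, 4.65 and 4.38 rescaled RPKM in LKO and at 6.36, 6.68 and 7.13 in shCXCR7 libraries, 144% of the control mean (0.51, standard error 0.08, adjusted p = 0.00201). POLD1 was the lowest, at 8.55, 8.69 and 8.37 against 7.97, 8.18 and 8.1. Its groups did not overlap, but the change was small and did not pass (-0.08, standard error 0.07, adjusted p = 0.417). POLA1 was at 0.23 (standard error 0.13, adjusted p = 0.209), and without the library that stood apart it passed at 0.32 (adjusted p = 0.0476). After that library's background was subtracted POLA1 was at 0.12 (adjusted p = 0.614 by limma). On the deposited values without rescaling it was at -0.05 (adjusted p = 0.957 by limma). The difference between the lines was -1.06 for POLD1 and -0.76 for POLE (standard errors 0.11 and 0.13), and both passed.

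All 8 genes of the sliding clamp, its loaders and Okazaki fragment processing were called lower in C4-2B-EnzR cells, with a median of -0.89. FEN1, the nuclease that trims flaps between Okazaki fragments, was at 21.6, 25.3 and 32.4 rescaled RPKM in LKO and 7.14, 7.94 and 7.78 in shCXCR7 libraries, a clear separation (-1.74, standard error 0.15, adjusted p = 0.00042). LIG1, the ligase that joins the fragments, fell by 1.33 (standard error 0.09), and DSCC1, a subunit of an alternative clamp loader, by 1.27 (standard error 0.18). PCNA encodes the clamp and was the most abundant gene of the set, per length, in every library. It stood at 40.6, 56.3 and 60 in LKO and at 36.2, 37.9 and 32.8 in shCXCR7 libraries, lower in each but by less (-0.53, standard error 0.15, adjusted p = 0.0311). RFC2, RFC3, RFC4 and RFC5, the small subunits of the main clamp loader, changed by -0.83, -0.96, -0.76 and -0.75 (standard errors 0.12 to 0.18).

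The loader subunits were split in LNCaP-EnzR cells. RFC4 was at 4.86, 5.09 and 3.61 rescaled RPKM in LKO and at 7.5, 6.75 and 7.08 in shCXCR7 libraries, higher in all 3 (0.64, standard error 0.13, adjusted p = 0.0047), and RFC3 rose by 0.29 (standard error 0.08). RFC5 and RFC2 were at 0.09 and -0.24 (standard errors 0.07 and 0.09) and did not pass. LIG1 had the lowest change of the role with all libraries, from 3.81, 3.78 and 3.52 to 2.19, 2.19 and 2.71 without overlap (-0.60, standard error 0.11, adjusted p = 0.00373). DSCC1 and FEN1 fell by 0.59 and 0.35 (standard errors 0.18 and 0.08), and PCNA was at -0.17 (standard error 0.12). On the deposited values without the library that stood apart, DSCC1 was at -0.71 and LIG1 at -0.63. After that library's background was subtracted both were at -0.66. The opposite changes of RFC3 and RFC4 in the lines gave differences of -1.25 and -1.40 (standard errors 0.18 and 0.23, both called). The rise of RFC3 became -0.02 (standard error 0.40) on the deposited values without rescaling.

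Fork protection and chromatin assembly genes were all called lower in C4-2B-EnzR cells, with a median of -0.88, the calls on TIPIN and CHAF1B being among those lost under other settings. CLSPN encodes claspin, which links the fork to the checkpoint kinase CHEK1, and it was at 3.27, 4.31 and 5.28 rescaled RPKM in LKO and 0.937, 0.971 and 0.79 in shCXCR7 libraries, 21.0% of the control mean (-1.96, standard error 0.18, adjusted p = 0.000601). TIMELESS and TIPIN form a complex that travels with claspin, but TIMELESS fell by 1.23 (standard error 0.12) and TIPIN by 0.31. TIPIN was at 10.1, 11.7 and 12.5 against 9.19, 8.97 and 9.23, below every control by a small margin (standard error 0.09, adjusted p = 0.0346). WDHD1, which ties the helicase to the polymerase that primes, fell by 0.96 (standard error 0.20), and CHAF1A and CHAF1B, subunits of the histone chaperone CAF-1, fell by 0.80 and 0.62 (standard errors 0.10 and 0.19).

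In LNCaP-EnzR cells TIMELESS fell and CHAF1A rose. TIMELESS was at 10.6, 9.61 and 10.4 rescaled RPKM in LKO and at 7.36, 7.69 and 6.78 in shCXCR7 libraries (-0.47, standard error 0.08, adjusted p = 0.00192). CHAF1A was at 6.79, 7.19 and 6.62 against 8.67, 9.6 and 9.83 (0.43, standard error 0.08, adjusted p = 0.00296). Neither gene's groups overlapped. CLSPN was at 1.28, 1.16 and 1.22 against 0.738, 0.642 and 1.1, with replicate 3 the nearest to control, and its change was -0.47 (adjusted p = 0.124) with that library and -0.66 (adjusted p = 0.00962) without it.

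**Figure D4:**
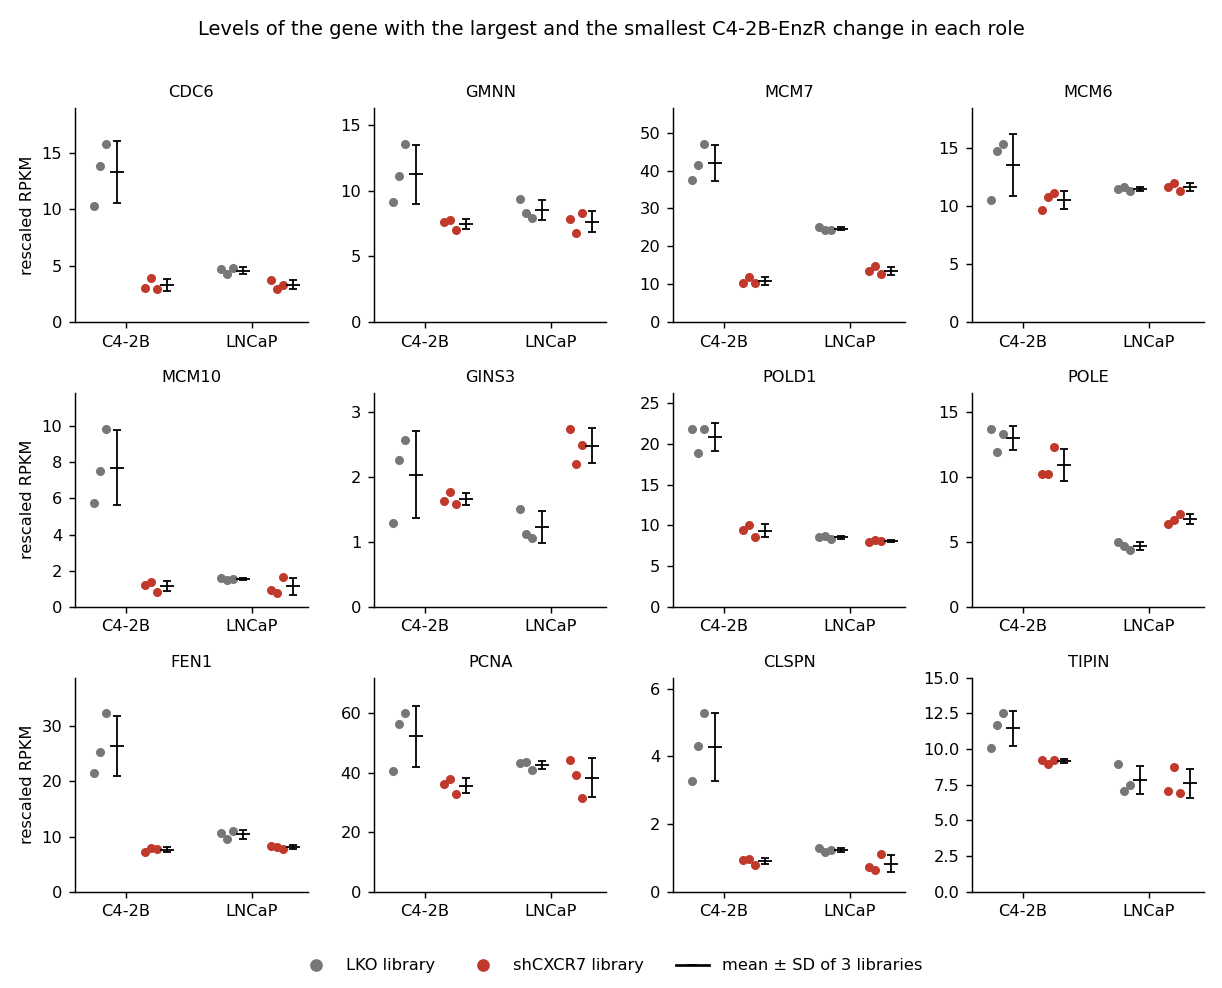
Rescaled RPKM of the replication gene with the largest and the one with the smallest change in C4-2B-EnzR cells in each of the 6 roles. Points are libraries (grey LKO, red shCXCR7) and the bars beside them give the mean ± SD of 3 libraries, each line on its own scaling. CDC6, MCM7, MCM10, POLD1, FEN1 and CLSPN drop well below all controls in C4-2B-EnzR cells, while GINS3 and POLE rise in LNCaP-EnzR cells.

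Between the LKO controls of the lines, the set stood higher in C4-2B-EnzR than in LNCaP-EnzR cells. With 1 set of factors over the 12 libraries, 33 of the 41 genes (80.5%) were higher in the C4-2B-EnzR LKO libraries, against 30.8% of all genes, and 0 were lower, against 30.0%. Limma gave 0 lower also at an unadjusted p under 0.05, as did voom, and the median difference was 0.90 on the log2 scale against 0 for all genes. The 4 genes with the largest differences were RFC3 at 2.03, CDC45 at 1.89, MCM10 at 1.86 and POLE2 at 1.80 (standard errors 0.13, 0.20, 0.24 and 0.16). The 8 genes that did not pass were CDT1, GMNN, DTL, MCM6, GINS2, GINS3, PCNA and TIPIN, from -0.07 for MCM6 to 0.34 for DTL and GINS3. On the deposited values without rescaling 21 of the 41 genes were higher and 0 lower, against 2371 and 1347 of all 14204 genes. The line, the dose of enzalutamide in culture and passage cannot be told apart in this comparison. It shares its control libraries with the KD comparisons, so no relation between them was computed.

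The genes with and without an E2F match had the same median change in C4-2B-EnzR cells. The 21 with a match had a median of -0.96 (range -1.96 to -0.21), with 16 called, and the 15 without a match also had -0.96 (range -2.52 to -0.55), with 15 called. All 5 genes that were not called in that line, MCM6, CDC7, GINS3, POLA1 and POLE, have a match. In LNCaP-EnzR cells the medians were -0.12 (range -0.85 to 0.89) and 0.09 (range -0.47 to 0.64). These values are a description and the difference was not tested.

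A further list of 41 replication genes outside the set, made of other subunits of the same complexes, regulators and checkpoint genes, also tilted down in C4-2B-EnzR cells, to a lesser extent. There 24 were called lower (58.5%) and 1 higher, against 19.5% and 19.4% of all tested genes, with a median of -0.37 against -1.01 for the set. TICRR, which brings CDC45 to origins, fell from 2.97, 3.86 and 4.63 to 0.9, 1.02 and 0.691 rescaled RPKM (-1.85, standard error 0.19). The histone chaperone ASF1B and the helicase MCM8 followed at -1.43 and -1.22 (standard errors 0.23 and 0.20), and the accessory polymerase subunit POLE4 was the 1 that rose (0.44, standard error 0.08). The origin complex subunits ORC2, ORC3, ORC4 and ORC5, which are not in the set, were at 0.24, -0.09, 0.19 and 0.12, and none passed, while ORC1 and ORC6 fell.

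In LNCaP-EnzR cells 7 of these 41 were lower and 4 higher, no larger a share than the 19.1% and 16.8% of all tested genes, with a median of -0.02. The nuclease and helicase DNA2, the polymerase subunit POLD4 and the topoisomerase TOP1 had the largest falls, of -0.65, -0.52 and -0.49 (standard errors 0.14, 0.07 and 0.08). RPA3, POLE3 and ORC2 had the largest rises, of 0.47, 0.33 and 0.30 (standard errors 0.10, 0.09 and 0.09). The difference between the lines passed for 11 genes (26.8%) in the direction of a lower value in C4-2B-EnzR cells and for 1 (2.44%), POLD4, in the other. The shares of all tested genes were 5.96% and 5.77%.

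**Figure D5:**
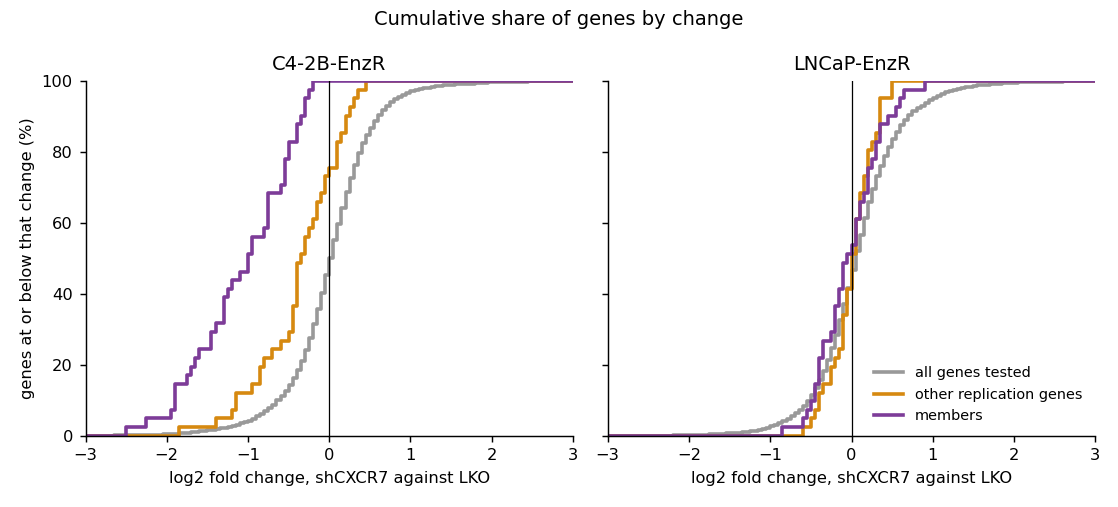
Cumulative share of genes (y axis, %) at or below a given log2 fold change after KD (x axis) in C4-2B-EnzR (left) and LNCaP-EnzR (right) cells, for the 41 replication genes (purple), 41 other replication genes (orange) and all 14204 genes (grey). At a change of -1 the shares are 51.2%, 12.2% and 4.29% in C4-2B-EnzR and 0%, 0% and 2.65% in LNCaP-EnzR cells.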

How the data were processed

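RNA-Seq was analysed from 1 deposited table of RPKM per gene. The authors prepared libraries from total RNA with a NEBNext Ultra kit, aligned reads to GRCh38 (hg38 in the submitters' notes) with STAR, counted reads per gene and computed the deposited RPKM with an in-house script. The sources used here do not give the annotation or the strand setting. Of 26475 lines, 32 held no value and were dropped, and 4 shared a symbol with another line. The first line of each shared symbol was kept, which left 26441 genes. Whole reads were recovered from the RPKM steps for 25028 of 25030 genes above 0, within 0.02 reads, and used in an alternative only.

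RPKM was divided by median-of-ratios factors within each line and fitted as log2(value + 0.25) with limma 3.58.1 (R 4.3.3), empirical Bayes with a variance trend and Benjamini-Hochberg adjustment over all genes tested. The study's DESeq2 needs counts and was not used. The difference between lines was an interaction term. Replicates differed by more than counting error (chi-square per degree of freedom 1.59 to 19.81), so none was counted as a copy. Promoters were searched with Python 3.11.15 and pandas 2.3.3, and figures drawn with matplotlib 3.10.9.

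The members, lists and alternatives were chosen with earlier results of these data known. Every member is accounted for by role, the highest and lowest change of each role in each line is given by library, and of the other replication genes up to 3 falls and 3 rises that passed are named per line. Other scalings, pseudocounts, filters, moderation, a replicate block, voom, other limits and leaving out each library were tried, and deposited values without the library that stood apart were added after the data were seen.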

Additional observations from a re-analysis of the deposited data

Results flagged for a closer look

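For 34 of the 41 replication genes the change after CXCR7 KD differed between the lines by the interaction term over 12 libraries (limma, adjusted p between 0.000284 and 0.0457), and each is given as the C4-2B-EnzR change minus the LNCaP-EnzR change on the log2 scale. Of the licensing genes, ORC1 differed by -1.91, DTL by -1.83, CDC6 by -1.51, ORC6 by -1.38 and CDT1 by -1.19. Of the helicase subunits, MCM4 differed by -1.19, MCM2 by -1.09, MCM5 by -1.08, MCM7 by -1.07 and MCM3 by -0.95. The helicase activators gave -2.08 for MCM10, -1.93 for CDC45, -1.51 for GINS4, -1.19 for GINS2, -1.10 for GINS1, -1.10 for GINS3 and -0.87 for DBF4. The polymerases gave -1.06 for POLD1, -1.05 for POLA2, -0.97 for POLE2, -0.76 for POLE, -0.74 for PRIM1 and -0.71 for POLD3. Around the clamp the values were -1.40 for RFC4, -1.39 for FEN1, -1.25 for RFC3, -0.84 for RFC5, -0.72 for LIG1 and -0.58 for RFC2. At the fork and in chromatin assembly they were -1.49 for CLSPN, -1.23 for CHAF1A, -1.13 for WDHD1, -0.94 for CHAF1B and -0.76 for TIMELESS. All 34 differences had the same sign, and 6 of these genes were called higher in LNCaP-EnzR cells, of which GINS1, RFC3, RFC4 and CHAF1A were called lower in C4-2B-EnzR cells and POLE and GINS3 were not called there. No outlier test was run on single values within groups of 3 libraries.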

How the results depend on the processing

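At 2-fold and an adjusted p under 0.001 the counts were 13 lower in C4-2B-EnzR, 0 lower and 0 higher in LNCaP-EnzR (no change there reached 2-fold on the log2(rescaled RPKM + 0.25) scale), 5 for the difference between lines and 18 for the control lines. Over all 14204 genes the same limits gave 265 lower in C4-2B-EnzR and 264 lower and 232 higher in LNCaP-EnzR. For the difference they gave 32 lower and 26 higher, and for the control lines 949 lower and 1121 higher. Deposited values without rescaling gave 0 lower and 0 higher in LNCaP-EnzR, 3 for the difference, 21 for the control lines and -0.02 for RFC3 in LNCaP-EnzR. Over all genes they gave 364 lower and 275 higher in LNCaP-EnzR, 33 and 20 for the difference, and 1347 lower and 2371 higher for the control lines against 4266 and 4375. No filter gave 1488 higher of all genes in LNCaP-EnzR against 2382. For the difference between lines over all genes (847 lower, 819 higher), no filter gave 479 and 467, the replicate block 544 and 479, deposited values without LNCaP-EnzR shCXCR7 replicate 3 869 and 514, and leaving out 1 library 528 to 951 and 457 to 874. In C4-2B-EnzR the latter gave 1939 to 2883 lower and 1792 to 2745 higher of all genes. Leaving out 1 library gave 27 to 40 lower in C4-2B-EnzR, 5 to 12 lower and 5 to 7 higher in LNCaP-EnzR, 28 to 39 for the difference and 30 to 36 for the control lines, and the 5 came without LNCaP-EnzR LKO replicate 3. The replicate block gave 30 lower in C4-2B-EnzR, 8 lower and 5 higher in LNCaP-EnzR and 32 for the difference, but the numbers do not pair the libraries (correlations of same-numbered deviations -0.07, 0.05 and -0.38 in C4-2B-EnzR, 0.09, 0.02 and -0.08 in LNCaP-EnzR). The cause of these changes was not tested. The other settings kept each of these counts within 1.5 times, with 25 to 40 lower in C4-2B-EnzR.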
